A study of Mus musculus with 48 samples.

Results

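The myelin genes Mbp, Mog, Mag, Mobp, Cnp, Mal, Cldn11, Opalin and Ermn were followed across all mice of the series. They were picked by mouse gene symbol after the listed Ensembl identifiers had been matched to the GENCODE annotation, and are 9 of 48709 genes listed. All 9 were found and all 9 passed the filter on low counts in every comparison.

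Myelin is the multilayered membrane that oligodendrocytes wrap around axons in the brain, where it speeds conduction and supports the axon. Its compact part forms when adhesive proteins press the cytoplasmic faces and the outer faces of neighbouring wraps together, while cytoplasmic channels and the innermost wrap stay open. In the hippocampal dentate gyrus (DG), myelinated fibres run through the hilus, while the granule cells themselves send out thin unmyelinated axons.

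RNA from male C57BL/6J mice was sequenced in 3 experiments, and the number of reads falling on each gene was deposited as a count. In the first, Fmn2-/- mice, in which the gene for the actin nucleator formin 2 is disrupted, and wild-type controls (Fmn2+/+) were compared in the DG, with 5 mice of each genotype aged 3 months and, at 8 months, 3 controls and 5 Fmn2-/- mice. In the second, mice labelled FMN2-/-_APP (7 mice) and mice labelled FMN2 +/+ APP (9 mice) were compared in the DG at 3 months. All 16 carried the APPPS1-21 transgenes, which express mutated human APP and presenilin 1 in neurons, so no mouse of this cross was free of the transgenes. In the third, 6 APP and 6 wild-type (WT) mice labelled 4 months were compared. All samples were whole tissue pieces in which oligodendrocytes are 1 cell type among many. The comparisons ask whether loss of Fmn2, alone or beside the APP transgenes, and the transgenes alone go with a different gene expression.

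The libraries held between 6818809 and 43921030 counts per mouse over 46 mice, and the members between 89 counts (Opalin) and 57341 counts (Mbp) per mouse. Fmn2, the gene that checks the genotype labels, was at least 93.1 CPM (counts per 1000000 counts of the library, scaled between libraries) in each Fmn2+/+ mouse of 3 months and at most 27.4 CPM in each Fmn2-/- mouse, and at least 77.1 and at most 28.2 CPM at 8 months. In the cross the order was the opposite of the labels. Mice labelled FMN2-/-_APP had 90.9 ± 6.86 CPM (SD, n = 7) and mice labelled FMN2 +/+ APP 20.5 ± 1.48 CPM (SD, n = 9), so each direction given for the cross follows the labels, and the mice with high Fmn2 are the ones labelled FMN2-/-_APP. The tissue field of the 4-month mice names the DG while their titles carry PFC. The summed level of 6 dentate granule cell markers was 122 to 180 CPM in these mice against 646 to 1236 CPM in all others, and that of 6 cortical neuron markers 637 to 729 CPM against 120 to 351 CPM, so the granule cell label was not borne out and the 4-month mice are named here by age. Their age label is 4 months while the text of the study gives 3 months. Fmn2-/- replicates 2 and 3 of 8 months differed by no more than repeat runs of 1 mouse did (chi-square per degree of freedom 1.69, against 1.80 and 2.27 for the repeat runs and at least 3.78 for other pairs of mice). They are labelled as separate mice and were counted as such, with values for the pair summed as 1 sample given beside the 8-month results. Replicates are separate samples by their labels, and p-values measure the spread between these samples.

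To place the genes, the bases upstream of their annotated starts are shown for a few members chosen after their values were seen: Mog, which followed the other members most closely, Mal, the member called in the cross, Opalin, the member that followed the others least, and Mobp, whose window held the most motif matches. The 4 sequences were taken from RefSeq on build GRCm38.p6 and are written 5′ to 3′ on the strand of the gene. They cover chr17:37023399-37023648 (minus strand), chr2:127656696-127656945 (minus strand) and chr19:41077114-41077363 (minus strand), each the 250 bases before the start, and chr9:120149492-120149641 (plus strand), the first 150 bases of the same window for Mobp, whose RefSeq start lies inside the annotated gene. Capitals mark motif letters.
Mog: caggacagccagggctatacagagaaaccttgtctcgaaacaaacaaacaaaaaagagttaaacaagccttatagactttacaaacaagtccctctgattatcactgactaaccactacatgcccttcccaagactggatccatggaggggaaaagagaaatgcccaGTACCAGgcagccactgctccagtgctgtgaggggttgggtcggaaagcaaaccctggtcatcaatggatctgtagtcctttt
Mal: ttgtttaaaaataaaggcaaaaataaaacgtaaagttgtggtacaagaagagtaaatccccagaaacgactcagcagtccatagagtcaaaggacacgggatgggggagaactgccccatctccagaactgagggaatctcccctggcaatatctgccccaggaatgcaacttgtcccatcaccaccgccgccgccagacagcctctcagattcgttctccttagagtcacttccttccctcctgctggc
Opalin: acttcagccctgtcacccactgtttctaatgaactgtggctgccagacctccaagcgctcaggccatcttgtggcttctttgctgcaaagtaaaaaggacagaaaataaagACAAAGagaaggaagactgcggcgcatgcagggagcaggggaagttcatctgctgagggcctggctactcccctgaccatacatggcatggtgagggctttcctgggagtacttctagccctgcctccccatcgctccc
Mobp: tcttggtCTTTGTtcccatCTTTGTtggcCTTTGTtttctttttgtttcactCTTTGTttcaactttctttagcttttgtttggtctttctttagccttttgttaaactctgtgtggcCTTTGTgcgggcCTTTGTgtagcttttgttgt
The motifs searched on both strands of the 250 upstream bases were TATAAA (present in 12.4% of all 32817 RefSeq promoters of that length), GGGCGG (32.7%), the SOX family letters ACAAAG (16.5%) and ACAATG (10.7%), the letters CTGGCAC (4.19%) and CTGGTAC (1.83%) associated with the myelin regulatory factor Myrf, and the E box CAGCTG (13.0%). Of the 8 members with an entry, 4 held ACAAAG (Cnp, Mag, Mobp and Opalin), with 6 matches on the minus strand in Mobp, 1 held ACAATG (Ermn), 2 held CTGGCAC (Cnp and Mag), 1 held CTGGTAC (Mog, at 83 bases upstream, written as its reverse complement) and 1 held GGGCGG (Cnp). Mal and Cldn11 held none of these letters, and no member held TATAAA or CAGCTG. A match describes letters in this window and is not evidence of binding.

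The members lie on 8 chromosomes of the mm10 genome. Mbp spans chr18:82475146-82585637, Mog chr17:37010743-37023398, Mag chr7:30899176-30914873, Mobp chr9:120149707-120181484, Cnp chr11:100574904-100591729, Mal chr2:127633226-127656695, Cldn11 chr3:31149920-31164324, Opalin chr19:41061710-41077113 and Ermn chr2:58045113-58052864. All are protein-coding. The library kit does not mark strand, so reads from 154 exon bases that Cnp shares with Dnajc7 on the other strand (196934 counts in all, against 158276 for Cnp) and from 237 bases that Ermn shares with Galnt5 (142 counts) cannot be told apart.

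The structural proteins of compact myelin had the highest levels. Per kilobase of exon, the median over 46 mice was 113 CPM for Mbp, myelin basic protein, which joins the cytoplasmic membrane faces, and 40.8 CPM for Mobp, a second basic protein of the cytoplasmic face. Cnp, the cyclic nucleotide phosphodiesterase of the cytoplasmic channels, had 36.7 CPM, Mal, a raft proteolipid that sorts membrane proteins into myelin, 32.8 CPM, and Cldn11, the claudin of the tight junctions between wraps, 26.1 CPM per kilobase. The surface proteins followed, with 15.0 CPM for Mog, an immunoglobulin-fold protein of the outermost wrap, and 12.7 CPM for Mag, the adhesion protein of the innermost wrap that faces the axon. Ermn, an actin-binding protein of the mature oligodendrocyte, had 6.96 CPM and Opalin, a transmembrane protein of differentiated oligodendrocytes, 3.53 CPM per kilobase. Without length correction Mbp made up 53.5 to 63.1% of the summed CPM of the 9 members in a mouse.

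The levels varied widely between mice. Mbp ranged from 564 CPM in APP mouse 6 of 4 months to 2704 CPM in WT mouse 3 of 4 months, with a median of 956 CPM, and all 9 members had their highest value of the series in that same WT mouse. Across mice the highest value was between 3.45 (Cnp) and 8.81 (Mag) times the lowest. By group mean, Mbp was highest in 8-month-old Fmn2+/+ mice (1487 ± 122 CPM, SD, n = 3), followed by 4-month WT (1416 ± 705, n = 6), 3-month Fmn2+/+ (1368 ± 375, n = 5), 3-month Fmn2-/- (1353 ± 259, n = 5), 8-month Fmn2-/- (1070 ± 165, n = 5), labelled FMN2-/-_APP (971 ± 194, n = 7), 4-month APP (817 ± 129, n = 6) and labelled FMN2 +/+ APP mice (714 ± 93.7, n = 9). Of its neighbours in that order, the 3-month and 8-month Fmn2-/- means differed by more than the larger SD and the ranges of all neighbours overlapped. Over the 9 members, all 63 pairs of neighbours had overlapping ranges and 7 differed by more than the larger SD. These levels come from 3 experiments, between which region, age and experiment cannot be told apart.

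**Figure D1:**
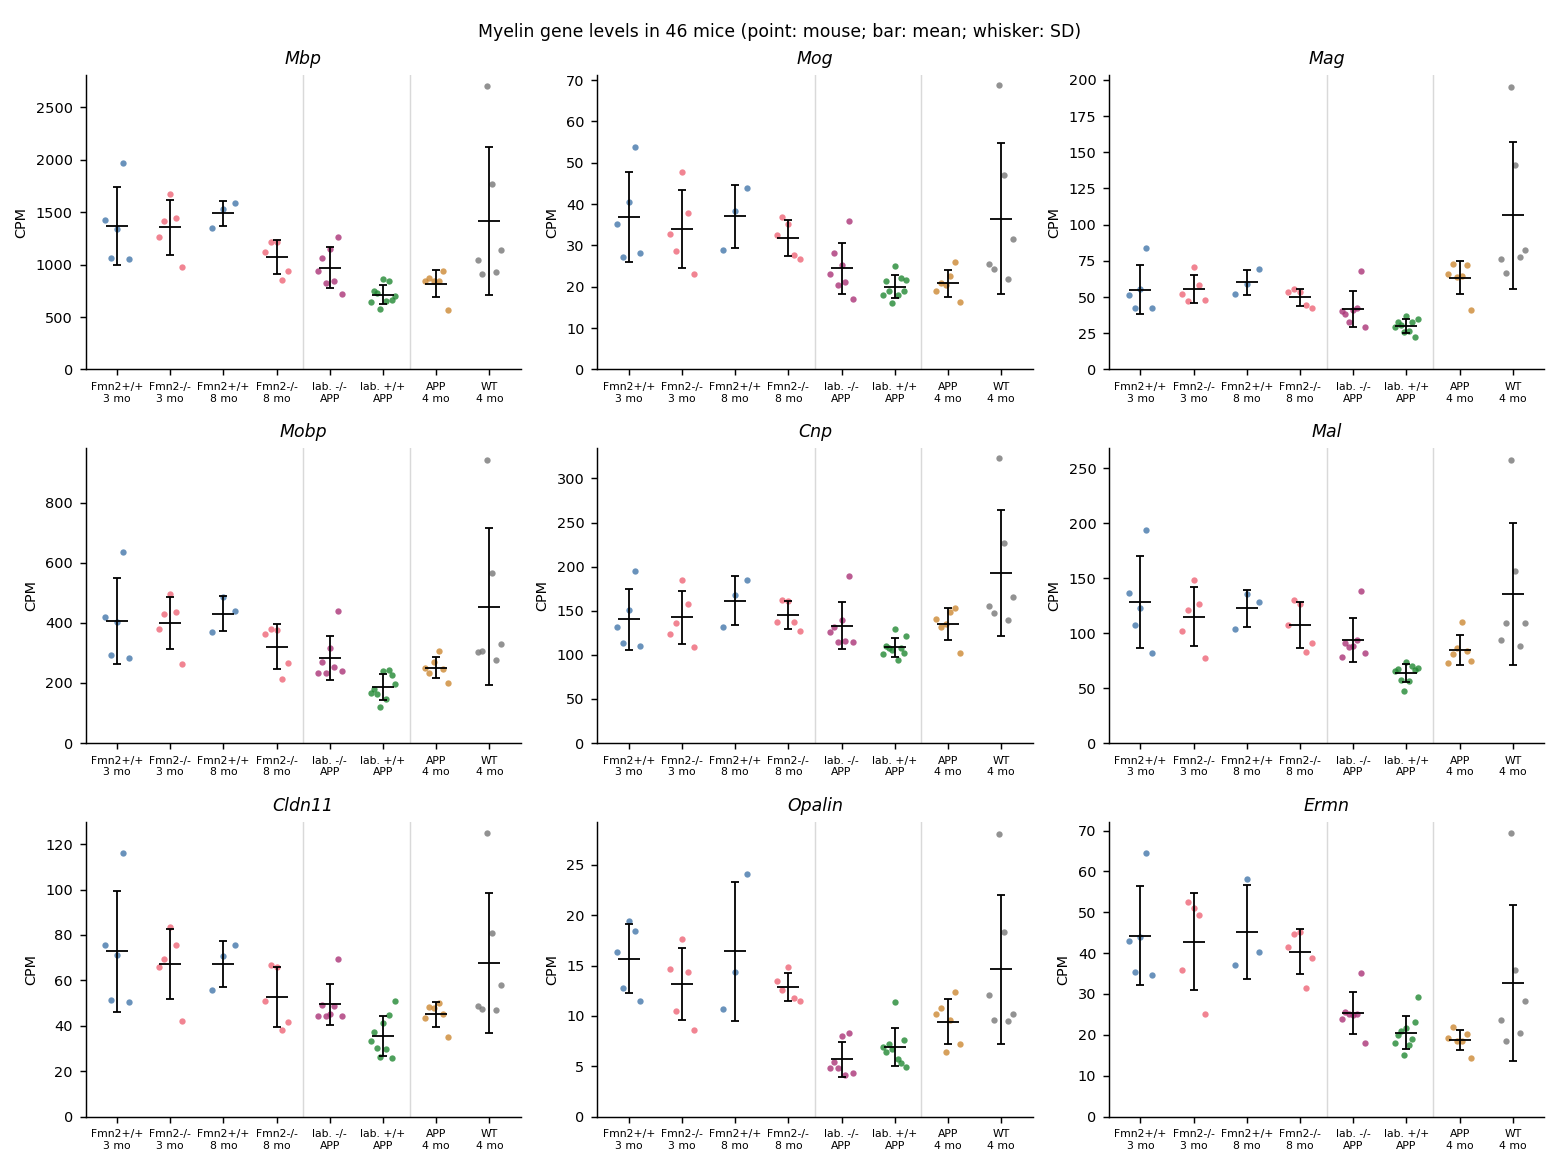
CPM (y axis, linear, from 0) of each member in each of 46 mice, by group; points are mice, the horizontal mark is the mean and the whisker the SD. The 4-month WT group spreads most, with 1 mouse at the top of every panel, and the mice labelled FMN2 +/+ APP have the lowest mean for every member except Opalin and Ermn.

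The first comparison set Fmn2-/- against Fmn2+/+ mice at 3 months, in young animals. No member was called different by edgeR or DESeq2, and none had an unadjusted p under 0.05. The thresholds were an adjusted p under 0.05 and a log2 fold change of at least 0.25 in size, and 5 of 16630 genes tested, 0.0301%, passed them. Mbp was measured at 1421, 1058, 1342, 1968 and 1050 CPM in Fmn2+/+ mice and at 1263, 1414, 1673, 1446 and 972 CPM in Fmn2-/- mice. The groups overlapped, and Fmn2+/+ mouse 4 lay above every Fmn2-/- mouse. The log2 fold change of Mbp was -0.02 (SE 0.18, Benjamini-Hochberg adjusted p = 0.979 by the quasi-likelihood test of edgeR). The members lay between -0.26 (Opalin) and 0.01 (Cnp), with a median of -0.06 against 0.0041 over all genes tested, and 8 of 9 were below 0, as were 48.9% of all genes. Without Fmn2+/+ mouse 4, the highest in 8 of 9 members, the median was 0.11. Without Fmn2-/- mouse 4, also the highest of its group in 8 of 9 members, the median was -0.14, with all 9 below 0. Choroid plexus markers summed to 4123 CPM in Fmn2-/- mouse 4 and to 64.6 CPM in Fmn2+/+ mouse 4. In this comparison lane and genotype nearly coincide (all Fmn2+/+ mice and 1 Fmn2-/- mouse on lane 5, and the other 4 on lane 6). On lane 5 the single Fmn2-/- mouse, set against the 5 Fmn2+/+ mice, gave a median of -0.08.

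At 8 months all 9 members were lower in Fmn2-/- than in Fmn2+/+ mice by their log2 fold changes, but none was called, against 166 of 14665 genes tested (1.13%) called in either direction. Mbp came closest. It was measured at 1350, 1530 and 1582 CPM in Fmn2+/+ mice and at 1120, 1217, 1218, 856 and 940 CPM in Fmn2-/- mice. Every Fmn2-/- mouse lay under every Fmn2+/+ mouse, a separation that 11.7% of all genes tested also showed in either direction, and for the other 8 members the groups overlapped. The log2 fold change of Mbp was -0.47 (SE 0.12, adjusted p = 0.0628, edgeR's quasi-likelihood test), or 0.723 of the Fmn2+/+ level. In a bulk sample, fewer oligodendrocytes and less RNA per oligodendrocyte cannot be told apart.

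Mobp had 369, 485 and 439 CPM in Fmn2+/+ mice and 363, 380, 377, 214 and 267 CPM in Fmn2-/- mice. The 2 lowest values were from Fmn2-/- mice 4 and 5, and Fmn2-/- mouse 1 also lay under every Fmn2+/+ mouse. Fmn2-/- mice 2 and 3 lay above the lowest Fmn2+/+ mouse. Its log2 fold change was -0.42 (SE 0.17, adjusted p = 0.169, same test). Mag, the axon-facing adhesion protein, had 52.1, 59.2 and 69.4 CPM in Fmn2+/+ mice and 53.3, 55.6, 53.5, 44.6 and 42.3 CPM in Fmn2-/- mice. Mice 4 and 5 were again the lowest. Its log2 fold change was -0.26 (SE 0.11, adjusted p = 0.2). Fmn2-/- mice 4 and 5 held the lowest value of the group in all 9 members, mouse 4 in 5 of them and mouse 5 in 4, and among the 3 Fmn2+/+ mice mouse 1 was lowest in all 9. Fmn2+/+ mouse 1 had 43921030 counts on lane 6, and the other mice of 8 months had 6818809 to 11675280 counts on lane 7.

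The other members had log2 fold changes between -0.34 for Cldn11 and -0.13 for Ermn. For Opalin the 3 Fmn2+/+ mice ranged from 10.7 to 24.1 CPM and the 5 Fmn2-/- mice from 11.5 to 14.9 CPM, so the Fmn2+/+ group alone spanned the other. The median of the 9 was -0.26, against 0.006 over all genes tested, of which 48.8% lay below 0. Without Fmn2+/+ mouse 3 the median was -0.14, and 8 of 9 were below 0, with Opalin above. At an unadjusted p under 0.05, 3 of 9 members (Mbp, Mobp and Mag) were lower, against 12.5% of all genes. DESeq2 called Mbp alone among the members, with 733 of 14665 genes called. The other settings that called members also called more genes in all, Mbp, Mobp and Cldn11 among 1124 of 28588 genes by edgeR without the filter on low counts and Mbp among 3087 of 15021 genes by edgeR without Fmn2+/+ mouse 2. With Fmn2-/- replicates 2 and 3 summed, all 9 remained below 0, with a median of -0.30 and a log2 fold change of -0.53 for Mbp. No member was called in that fit (lowest adjusted p = 0.108, edgeR), which called 5 of 14843 genes in all. Over the mice of lane 7 (5 Fmn2-/- and 2 Fmn2+/+ mice) all 9 were below 0, with a median of -0.38.

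Between 3 and 8 months no member was called in either genotype by edgeR or DESeq2, and the unadjusted p was under 0.05 in 0 members in Fmn2+/+ mice and in 1, Mbp, in Fmn2-/- mice. Mbp was called in Fmn2-/- mice when 3-month mouse 6 was left out, as 1 of 740 genes called of 14852. The age comparisons share their mice with the genotype comparisons and are not separate evidence. In Fmn2+/+ mice the members lay between -0.12 (Cldn11) and 0.21 (Cnp), with a median of 0.03 that ranged from -0.07 to 0.18 when each mouse was left out, and 977 of 16325 genes (5.98%) were called. In Fmn2-/- mice they lay between -0.35 (Cldn11) and 0.03 (Cnp), with a median of -0.09 that ranged from -0.20 to 0.0027 when each mouse was left out, and 1002 of 15752 genes (6.36%) were called. Mbp was 0.13 higher with age in Fmn2+/+ mice (log2, adjusted p = 0.686) and its log2 fold change in Fmn2-/- mice was -0.33 (adjusted p = 0.151, edgeR). The difference between the genotypes' age changes was itself tested, and for Mbp it was -0.46 (SE 0.24, adjusted p = 0.254, edgeR's interaction term). All 9 interaction terms were below 0, with a median of -0.17, but none was called by edgeR or DESeq2 and none had an unadjusted p under 0.05, against 635 of 17046 genes (3.73%) called, and 52.9% of all genes lay below 0. The median of the interaction terms ranged from -0.35 to -0.05 when each mouse was left out, with 4 of 9 above 0 without Fmn2-/- mouse 4 or without Fmn2+/+ mouse 5 of 3 months, and it was -0.08 with 2 above 0 under length and GC correction. Lane differs between the ages as well, and its part in these values was not tested.

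In the cross 8 of 9 members were lower in the mice labelled FMN2 +/+ APP, the ones with low Fmn2 counts, and Mal was the member that was called. Mal was measured at 78.0, 91, 87.4, 88.4, 82.2, 93.5 and 138 CPM in mice 1 to 7 labelled FMN2-/-_APP. In mice 1 to 9 labelled FMN2 +/+ APP it was measured at 65.9, 47.6, 67.3, 73.7, 56.9, 57.7, 69.7, 66.8 and 68.4 CPM. The lowest mouse of the first group lay above the highest of the second, a separation shown by 0.534% of the 16656 genes tested in either direction, and by no other member. The log2 fold change of Mal was 0.56 (SE 0.11, adjusted p = 0.017, edgeR's quasi-likelihood test), a 1.48-fold higher level in the mice labelled FMN2-/-_APP. The thresholds here were an adjusted p under 0.05 and a log2 fold change of at least 0.5 in size, passed by 129 genes (0.774%) in either direction and by 73 (0.438%) in the direction of Mal.

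The call of Mal rests in part on 1 mouse. Mouse 7 labelled FMN2-/-_APP was the highest of its group in all 9 members, and without it the log2 fold change of Mal was 0.43 (adjusted p = 0.0179, edgeR), under the fold threshold, and the median of the members fell from 0.44 to 0.30. The sum of the members was 2245 CPM in mouse 7 and 1271 to 1832 CPM in the other mice of the group. Its other lists moved to different degrees. Oligodendrocyte transcription factors summed to 209 CPM, the upper end of a group range of 127 to 209 CPM. Tcf7l2, 1 of these factors, had a median of 4.06 CPM and a highest value of 43.6 CPM in the group. Precursor and premyelinating genes summed to 376 CPM in mouse 7, the highest of the group (250 to 376 CPM). Its granule cell, cortical neuron and microglia markers summed to 767, 127 and 209 CPM. Each was the lowest of the group (767 to 1236, 127 to 176 and 209 to 295 CPM). Astrocyte markers summed to 2608 CPM in mouse 7, near the lower end of the group (2603 to 3014 CPM), and hippocampal pyramidal markers to 134 CPM, the group median. In mice 4 and 5 labelled FMN2 +/+ APP the choroid plexus markers summed to 9125 and 5990 CPM, where the median of the group was 83.1 CPM. Without these mice Mal had a log2 fold change of 0.56 (adjusted p = 0.0471) and was still called. DESeq2 called Mobp and Mal among 304 genes, and edgeR with lane as a covariate called Mobp, Mal and Cldn11 among 180, of 16656 genes each.

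The remaining members pointed the same way, with Opalin as the exception. Mobp had a lowest, median and highest level of 234, 254 and 438 CPM in mice labelled FMN2-/-_APP and of 121, 181 and 244 CPM in those labelled FMN2 +/+ APP. The groups overlapped between 234 and 244 CPM. Its log2 fold change was 0.60 (SE 0.16, adjusted p = 0.0611, edgeR). Mbp had 721, 936 and 1262 CPM against 579, 705 and 865 CPM. The middle of the first group lay above the highest mouse of the second. Its log2 fold change was 0.44 (SE 0.11, adjusted p = 0.0522). For Cldn11, the tight junction protein, the levels were 44.3, 45.2 and 69.6 CPM against 25.8, 33.4 and 51.1 CPM. Mice 7 and 9 of the second group lay above the lowest mouse of the first, and the others below it. The log2 fold change was 0.48 (SE 0.14, adjusted p = 0.0926). Mag had 29, 40.6 and 68.3 CPM against 22.2, 30.9 and 36.7 CPM and a log2 fold change of 0.48 (adjusted p = 0.107). The groups overlapped at their lower and upper ends.

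Ermn, Cnp and Mog had the smallest log2 fold changes of the 8 above 0, with 0.31, 0.29 and 0.29 (adjusted p = 0.238, 0.14 and 0.273). Opalin had 4.08, 4.85 and 8.29 CPM in mice labelled FMN2-/-_APP and 4.95, 6.68 and 11.4 CPM in mice labelled FMN2 +/+ APP. The groups overlapped for most of their range. Its log2 fold change of -0.28 (SE 0.19, adjusted p = 0.489) ran against the other 8 members and did not pass the test, and Opalin has the lowest counts of the members. Of the 9 members, 8 were above 0 at an unadjusted p under 0.05, against 8.87% of all genes, and the median of the 9 was 0.44 against 0.0057 over all genes. By lane, the median over the members was 0.50 on lane 5 (3 mice against 3), 0.25 on lane 6 (3 against 3) and 0.79 on lane 7 (1 against 3), with 8, 8 and 9 members above 0. Mouse 7 of each label was sequenced on lanes 4 and 7, and both runs were summed, so the lane 7 value is not from that lane alone.

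**Figure D2:**
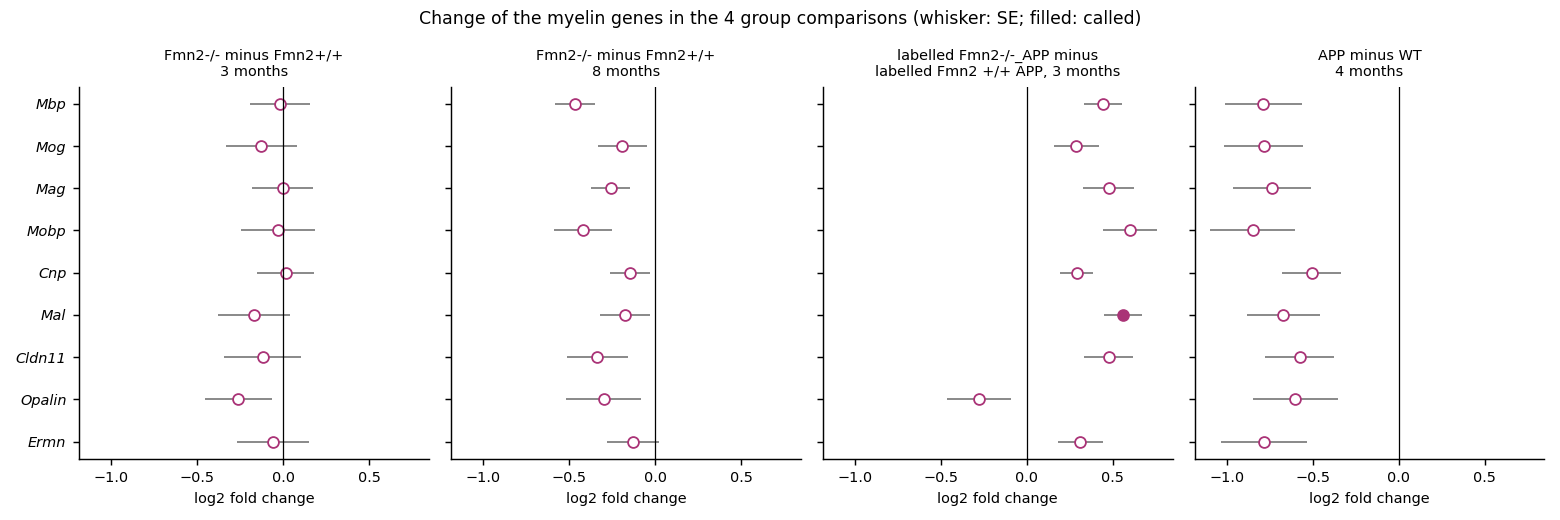
Log2 fold change (x axis) of each member in the 4 group comparisons; the whisker is the SE and a filled point marks a called member. Mal in the cross is the filled point, Opalin lies on the other side of 0 there, and all 9 points lie below 0 at 8 months and in the APP mice at 4 months.

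Genes around the members in the same comparison were examined by lists. Of 15 other myelin membrane and junction genes, 12 were higher in mice labelled FMN2-/-_APP and 2 were called, both higher, among them Hapln2, a link protein of the nodes of Ranvier (log2 fold change 0.70, adjusted p = 0.0274). Hapln2 was measured at 3.54 to 6.52 CPM against 2.13 to 4.04 CPM. Among 9 oligodendrocyte transcription factors 8 were higher and 1 was called, Olig2 (0.56, adjusted p = 0.0347). Myrf, which activates myelin genes, had an adjusted p of 0.0493 but a log2 fold change of 0.39, under the fold threshold. None of 7 myelin lipid enzymes and none of 10 genes of oligodendrocyte precursors and premyelinating cells was called, with 4 and 9 of them higher. Of 6 astrocyte markers 4 were above 0 and none was called, with a median of 0.08. The lowest adjusted p of the 6 was 0.0211 (edgeR), for a marker other than Gfap that was under the fold threshold. Gfap, the astrocyte filament protein, had the lowest log2 fold change of these (-1.11, adjusted p = 0.0662, edgeR), and was 322 to 753 CPM in mice labelled FMN2-/-_APP and 601 to 2843 CPM in mice labelled FMN2 +/+ APP. C1ql2 of the granule cells was called higher (0.60). All 5 choroid plexus markers had a log2 fold change below 0, with none called. The part of these cells in the values of the myelin genes was not tested.

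At 4 months, all 9 members were lower in APP than in WT mice by their log2 fold changes and none was called, against 392 of 16733 genes (2.34%) called in either direction. The highest levels were those of 2 WT mice. Mbp was measured at 1047, 912, 2704, 1768, 932 and 1135 CPM in WT mice 1 to 6. In APP mice 1 to 6 it was measured at 843, 871, 842, 842, 938 and 564 CPM. WT mice 3 and 4 lay far above all others, and among the rest only APP mouse 5 reached the level of WT mice 2 and 5, so the groups overlapped between 912 and 938 CPM. The log2 fold change of Mbp was -0.79 (SE 0.22, adjusted p = 0.0647, edgeR's quasi-likelihood test).

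Mobp had 303, 307, 941, 567, 277 and 328 CPM in WT mice and 249, 233, 271, 306, 246 and 200 CPM in APP mice. Again WT mice 3 and 4 were the highest, and APP mouse 4 overlapped the lower WT mice. The log2 fold change of -0.85 (SE 0.25, adjusted p = 0.0724) was the lowest of the 9. Mog had 25.4, 24.4, 68.7, 47.0, 22 and 31.5 CPM in WT mice and 19.0, 21, 20.5, 22.7, 25.9 and 16.3 CPM in APP mice, with a log2 fold change of -0.79 (SE 0.23, adjusted p = 0.0719). Mag had 76.3, 66.6, 195, 141, 77.7 and 82.7 CPM in WT mice and 65.8, 72.7, 63.8, 64.5, 71.8 and 41.4 CPM in APP mice, with a log2 fold change of -0.74 (adjusted p = 0.0911). For Mog, APP mice 4 and 5 reached the WT range and the other APP mice lay below every WT mouse. For Mag, APP mice 2 and 5 reached that range and the others lay below every WT mouse.

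Ermn had a lowest, median and highest level of 18.6, 26 and 69.4 CPM in WT mice and of 14.3, 18.9 and 21.9 CPM in APP mice, with a log2 fold change of -0.78 (adjusted p = 0.11). Mal, Opalin, Cldn11 and Cnp had log2 fold changes of -0.67, -0.60, -0.58 and -0.51 (adjusted p = 0.102, 0.255, 0.158 and 0.142). The groups overlapped in all 9 members. At an unadjusted p under 0.05 all 9 were lower, against 6.77% of all genes. The median of the 9 was -0.74, against -0.00042 over all genes, of which 50.2% lay below 0. Without WT mouse 3 the median was -0.41, and without WT mice 3 and 4, left out after the data were seen, it was -0.24 with members between -0.29 and -0.11, all 9 below 0, and none called (lowest adjusted p = 0.141, edgeR). The count of members called otherwise depended on the mice and the genes entered. DESeq2 called none, edgeR without the filter on low counts called 7 among 500 of 32101 genes, and edgeR called 3 without WT mouse 1 or WT mouse 5 (Mbp, Mog and Mobp each time, among 383 of 16843 and 376 of 16868 genes) and 5 without WT mouse 2 (among 418 of 16786 genes). All APP mice were sequenced on lane 7 and all WT mice on lane 5, so lane and genotype cannot be told apart.

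WT mice 3 and 4 stood apart in oligodendrocyte genes and less so in other lists. Their 9 members summed to 4713 and 3041 CPM, against 1613 to 1950 CPM in the other WT mice and 1055 to 1595 CPM in APP mice. Other myelin membrane and junction genes summed to 2811 and 1843 CPM. In WT mice 3 and 4 astrocyte markers summed to 1694 and 1797 CPM and microglia markers to 240 and 256 CPM. Their cortical neuron markers summed to 672 and 707 CPM. The whole WT group, WT mice 3 and 4 included, spanned 1599 to 1797, 238 to 256 and 672 to 729 CPM in that order. WT mouse 4 set the upper end for astrocyte and microglia markers, and WT mouse 3 the lower end for cortical neuron markers. These spans were narrow beside that of the members in the same group, 1613 to 4713 CPM. Schwann cell markers summed to 1.28 and 1.47 CPM, with Pmp2 at 0 in every mouse of both groups.

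**Figure D3:**
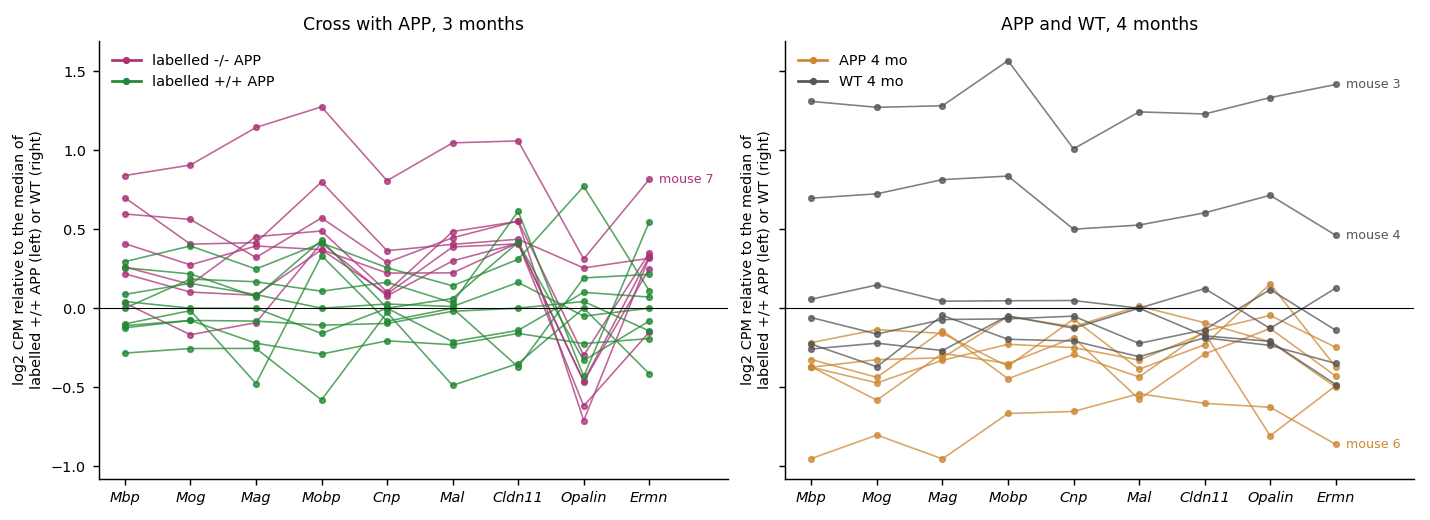
Each line is 1 mouse and gives its log2 CPM of the members (x axis) relative to the median of the mice labelled FMN2 +/+ APP (left) or of WT mice (right), with the y axis shared. WT mice 3 and 4 and mouse 7 labelled FMN2-/-_APP run above their groups along the whole row, and APP mouse 6 runs at the bottom for most members.

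Other gene groups at 4 months moved in both directions. Of 15 other myelin membrane and junction genes 14 were lower by their log2 fold changes, and 1 was called lower and 1 higher. The latter was Cd9, a tetraspanin of myelin that other cells also make (log2 fold change 0.89, adjusted p = 3.93e-05). None of 7 myelin lipid enzymes, 9 oligodendrocyte transcription factors and 10 precursor and premyelinating genes was called, with 7, 7 and 3 below 0. Of 6 microglia markers 5 were called higher, led by C1qa (1.33), and Gfap was called higher among 6 astrocyte markers (2.10). The summed microglia markers were 364 to 460 CPM in APP and 238 to 256 CPM in WT mice. The part that more RNA of these cells has in the lower CPM of the myelin genes was not tested.

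The lists at 8 months and 3 months held few calls. At 8 months Bcas1, an early myelination gene, was called lower in Fmn2-/- mice (log2 fold change -0.54, adjusted p = 0.0434), 1 of 10 precursor and premyelinating genes, and none of the other myelin membrane genes, lipid enzymes and transcription factors was called, with 10 of 14, 4 of 7 and 7 of 9 tested below 0. Aqp4 among astrocyte markers (0.46) and C1ql2 among granule cell markers (-0.65) were also called. In each of these 2 lists 4 of 6 markers were above 0, with medians of 0.12 and 0.05, so C1ql2 ran against most of its list. At 3 months no gene of any list was called. In the age comparisons Olig1 was called higher with age in Fmn2+/+ mice (0.47) and Sox10 and C1ql1 lower with age in Fmn2-/- mice (-0.43 and -0.55), and the interaction was called for Olig1 (-0.62). C1ql2 (0.71) and Ttr of the choroid plexus (2.57) in Fmn2+/+ mice, Aqp4 (0.28), Cux2 (-0.55) and Gad1 (0.26) in Fmn2-/- mice and C1ql2 in the interaction (-0.91) were the other listed genes called.

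Within groups the members varied together from mouse to mouse. After log2 CPM was centred on each group mean, the 36 pairs of members had a Pearson r of 0.584 to 0.949 over 46 mice, with a median of 0.869. Mog and Cnp, from the outermost wrap and the cytoplasmic channels, were the closest pair (0.949), and Cldn11 and Opalin the most distant (0.584). Mog had the highest r with the mean of the other 8 members (0.964), then Mbp (0.961) and Cnp (0.956), while Ermn (0.875) and Opalin (0.741) had the lowest. All genes of a mouse come from 1 library, so these values share its depth and tissue piece and are given with no test.

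**Figure D4:**
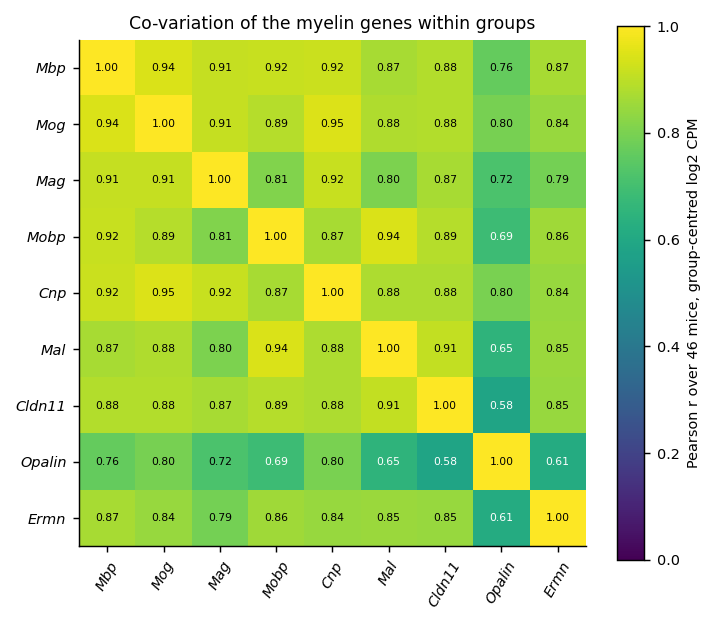
Pearson r (colour and printed value) between each pair of members over 46 mice, from log2 CPM centred on the group means. The row of Opalin holds the lowest values, down to 0.584 with Cldn11, and Mog and Cnp share the highest value, 0.949.

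The genes outside the 9 whose mouse-to-mouse pattern was most like theirs were sought among 14746 genes with a mean of at least 1 CPM, by the r of their centred log2 CPM with the mean of the standardised members over 46 mice. Among the 10 closest were Tmem88b (0.938), Bcas1 (0.921), Fa2h (0.919), Prr18 (0.919), Ugt8a (0.894), Tmem63a (0.891), Ttyh2 (0.883), Aspa (0.879) and Tspan2 (0.873). The median over all genes was -0.03 and the 99th percentile 0.57. Fa2h and Ugt8a make the galactolipids of myelin and Aspa splits N-acetylaspartate. Among the transcription factors Myrf (0.822) and Sox10 (0.718) were closer to the members than Olig1 (0.414) and Olig2 (0.381).

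The proportions between members differed between the experiments. The ratio of Mag to Mog in CPM had a median of 1.56 (1.38 to 2.09) in the 18 mice of the Fmn2 experiment, 1.61 (1.17 to 1.99) in the 16 mice of the cross and 2.92 (2.54 to 3.53) in the 12 mice of 4 months, where both genotypes lay above every mouse of the other experiments. The ratio of Opalin to Mog had medians of 0.411, 0.279 and 0.427 in the same order. Within the cross it was 0.192 to 0.315 in mice labelled FMN2-/-_APP (median 0.231) and 0.228 to 0.455 in mice labelled FMN2 +/+ APP (median 0.374), so the groups overlapped. Region, age and sequencing differ between the experiments and cannot be told apart.

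**Figure D5:**
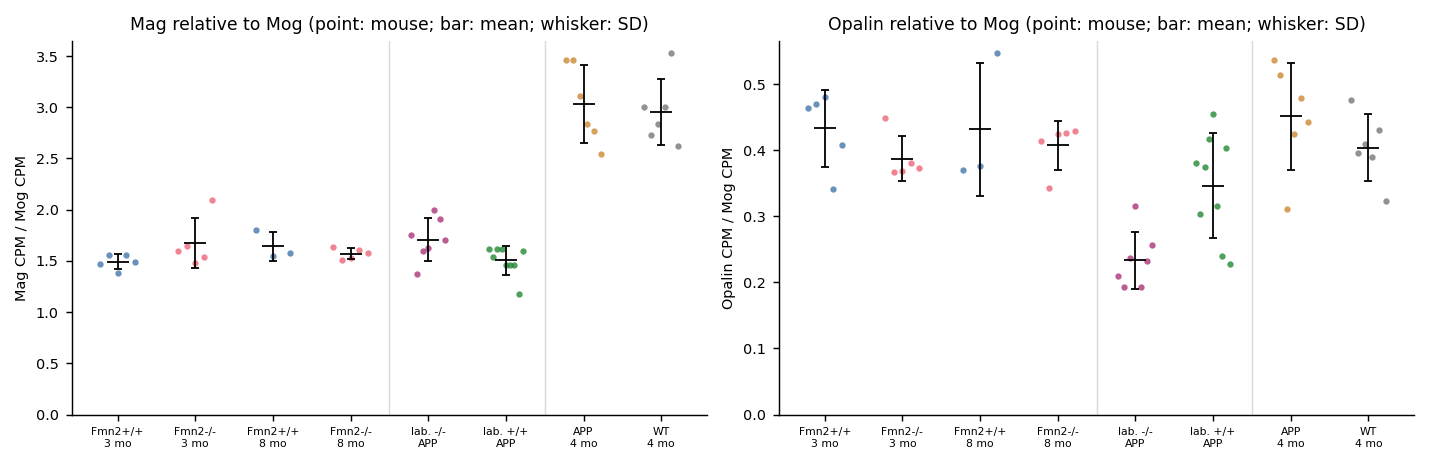
Ratio of Mag to Mog (left) and of Opalin to Mog (right) in CPM (y axes, linear, from 0) per mouse and group; points are mice, the mark is the mean and the whisker the SD. The 4-month mice lie above all others for Mag over Mog (2.54 to 3.53), and the mice labelled FMN2-/-_APP lie lowest for Opalin over Mog.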

How the data were processed

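Counts of reads per gene were deposited for 48 runs of 46 mice; the authors made them by aligning TruSeq mRNA reads to mm10 with STAR and counting with HTSeq (intersection-nonempty mode), without normalization. Of 48709 Ensembl identifiers, 48349 matched GENCODE M21, from which symbols, positions and exon lengths were taken, and no deposited column was left without a sample. Repeat runs of 1 mouse were summed. The labels place every mouse in a group. Members and lists were chosen with earlier results of these data known.

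Each comparison was fitted on its own groups with edgeR 4.0.16 (limma 3.58.1, R 4.3.3), using TMM, filterByExpr, the quasi-likelihood test and Benjamini-Hochberg adjustment over all genes tested. The interaction used all 18 mice of the Fmn2 experiment. Levels are CPM after TMM over 46 mice, with a pseudocount of 0.01 on the log2 scale. The fits were tested on simulated data. Alternatives were DESeq2 1.42.0, its size factors, no filter, each mouse left out, length and GC correction, replicate number as a block, lane, summed replicates and single runs.

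Named genes were the 9 members, Fmn2, up to 4 called genes of each list by size of change (or up to 2 of smallest p) and the 10 genes most like the members. Some genes that this rule selects are not reported here. The lists were other myelin membrane and junction genes, myelin lipid enzymes, oligodendrocyte transcription factors, precursor and premyelinating genes, and markers of astrocytes, microglia, granule cells, cortical, hippocampal pyramidal and inhibitory neurons, endothelium, choroid plexus and Schwann cells. Hippocampal pyramidal, endothelial and Schwann cell markers had no call in any comparison. Upstream sequences are from RefSeq (GRCm38.p6), which had entries for 8 members. Depth was 6818809 to 43921030 counts per mouse.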

Additional observations from a re-analysis of the deposited data

Results flagged for a closer look

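In groups of 4 to 10 mice, 11 of 63 tests of the highest or lowest mouse marked a member value as far from the others of its group by Dixon's criterion, where chance marks about 1 in 20. Mouse 7 labelled FMN2-/-_APP was the highest of 7 for Mag (68.3 CPM, next 42.3), Mobp (438, next 315), Cnp (189, next 139), Mal (138, next 93.5), Cldn11 (69.6, next 49) and Ermn (35.2, next 25.5). APP mouse 6 of 4 months was the lowest of 6 for Mbp (564 CPM, next 842) and Mag (41.4, next 63.8). WT mouse 3 of 4 months was the highest of 6 for Ermn (69.4 CPM, next 35.8), APP mouse 4 was the highest of 6 for Mal (110 CPM, next 86.8), and mouse 4 labelled FMN2 +/+ APP was the highest of 9 for Opalin (11.4 CPM, next 7.63). The members vary together within a library, so these are not separate events.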

How the results depend on the processing

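The number of members called moved as follows. At 8 months (0 called) it was 1 with DESeq2 and 3 with no filter on low counts. It was 0 to 1 there when each mouse was left out, with 4 to 3087 genes called in all. In the cross (1 called) it was 2 with DESeq2, 3 with length and GC correction (among 174 of 16656 genes) and 3 with lane as a covariate. It was 0 to 2 there when each mouse was left out, with 73 to 171 genes called in all. At 4 months (0 called) it was 7 with no filter and 1 with length and GC correction (among 383 of 16733 genes). It was 0 to 5 there when each mouse was left out, with 365 to 418 genes called in all. With age in Fmn2-/- mice (0 called) it was 0 to 1 when each mouse was left out, with 563 to 1039 genes called in all. With the replicate number as a block it was 3 in the cross, 2 at 4 months and 0 at 3 and 8 months. Those fits called 111 of 16554, 383 of 16733, 2 of 16437 and 4 of 14452 genes in the same order. With the block and length and GC correction it was 3 in the cross (131 genes called) and 3 at 4 months (372 genes called). Over the same mice of the cross without the block it was 2 (167 genes called). Same-numbered mice did not deviate together in every pair. Their r was -0.13 to 0.21 at 3 months, -0.06 to -0.02 at 8 months, -0.31 to 0.32 in the cross and -0.20 to 0.29 at 4 months. A mouse correlated best with its own number in 2 of 4, 0 of 3, 3 of 7 and 2 of 6 pairs in the same order. With the block the median of the members at 8 months was -0.14 (-0.07 with that correction). Signs turned only for uncalled changes. Mbp at 3 months was 0.11 with the block, 0.13 with the block and length and GC correction, 0.0675 over the paired mice with no block and -0.11 to 0.15 when each mouse was left out. At 8 months the block with that correction gave 0.000861 for Mog and 0.016 for Cnp, and leaving out mice gave -0.28 to 0.0806 for Ermn and -0.60 to 0.10 for Opalin. Over all genes, called genes ranged from 2 to 90, 3 to 3087, 56 to 304 and 365 to 500 in the 4 group comparisons, and from 148 to 3173, 397 to 1167 and 8 to 2791 for age in Fmn2+/+ mice, age in Fmn2-/- mice and the interaction. The causes were not tested. Limits are 3 to 9 mice a group, shallow 8-month libraries except Fmn2+/+ mouse 1, and lane in the 3-month, 4-month and 8-month comparisons.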
